A study of Homo sapiens with 9 samples.

Results

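The complement system is a cascade of plasma proteins and cell-surface proteins, and 9 of its genes were followed here in PC9, a cell line from a human lung adenocarcinoma whose growth is driven by mutant EGFR, the epidermal growth factor receptor. They were C1S and C1R, which encode the proteases of the C1 complex, C3, the central component, CFB, the protease precursor of the alternative pathway, the secreted regulators SERPING1 and CFI, and the membrane regulators CD46, CD55 and CD59. They were picked by name out of 20442 genes in the deposited table, each as the deposited coding span (start to stop codon) that had the highest mean over the libraries, and all 9 were found. A filter on low values, a mean log2 of at least 7.01, what 10 reads are worth in the library with the least depth, let 12391 genes into the tests, with 7 of the 9 members among them. SERPING1 and CFI fell below it.

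PC9 cells that stably carried the FUCCI4 reporter, with its mKO2-CDT1 and Clover-GMNN markers of the cell cycle, were treated with 500 nM osimertinib, which inhibits EGFR, for 28 days, or were untreated (day 0). They were fixed with glyoxal, sorted into G1, S and G2, and their poly(A) RNA was sequenced with the strand kept. The 4 day 28 libraries were G1 of clone 7, G1 of clone 1, S of clone 1 and G2 of clone 1. The 5 day 0 libraries were G1 of clone 7, G1 of clone 1, S of clone 7, S of clone 1 and G2 of clone 1. All libraries came from these 2 clones, and no label says which of them shared a culture, so p-values measure the spread between libraries, which may be technical. Time in culture and the drug cannot be told apart in this design.

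Complement can be started by antibodies through C1, by sugars through lectins or by slow spontaneous activation of C3 through the alternative pathway, and each route ends in the cutting of C3 and in a pore made of the terminal components. Cells protect themselves with CD46, CD55 and CD59, which act at different steps, and plasma carries further inhibitors. The liver makes most of the circulating components, and epithelial cells, those of the lung included, make some of them locally.

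The libraries held between 8.83 M reads (M for mega, day 0 G1 clone 7) and 108.7 M (day 0 G1 clone 1), a 12.3-fold range. The share of mitochondrial genes was 8.61% to 21.6% in the day 28 libraries and 6.07% to 10.7% in those of day 0, and the part of this difference in the results below was not tested. Summed over 6 epithelial markers, the read density was 1649 to 3012 RPKM (reads per kilobase of coding span and megaread of the library) at day 28 and 2277 to 4025 at day 0. The same sum was 0.332 to 2.56 at day 28 and 2.66 to 6.98 at day 0 for 6 leukocyte markers, and 0.876 to 2.92 and 0.774 to 1.07 for 5 fibroblast markers. For 5 hepatocyte markers it was 0 to 1.27 at day 28 and 0.0285 to 0.0816 at day 0, where ALB and TTR had no read. In bulk RNA, fewer cells with a transcript and less of it per cell cannot be told apart.

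Promoter sequences are shown for 3 members that rose at day 28, because the factors of interferon and NF-kB signalling, which act on complement genes, have known binding motifs. RefSeq promoter windows, build GRCh38.p14, were matched by symbol for 6 of the 9 members and cover 250 bases before the transcription start. C1S, C3 and SERPING1 had no window, so the motif search does not cover them. They were searched on both strands for an interferon-stimulated response element (ISRE, TTTC and TTTC with NN between them), a gamma-activated site (GAS, TTC and GAA with NNN between them) and an NF-kB site (GGG, NN, TT, N and CC in a row), where N is any base. At least 1 match was held by 3.02%, 6.57% and 5.07% of 35116 such windows for ISRE, GAS and NF-kB. Capitals mark a match, and the matches do not overlap. CFB lies at chr6:31945845-31946094 (plus strand), CD55 at chr1:207321428-207321677 (plus strand), and C1R has 2 windows at chr12:7092446-7092695 and chr12:7091894-7092143 (minus strand).
CFB: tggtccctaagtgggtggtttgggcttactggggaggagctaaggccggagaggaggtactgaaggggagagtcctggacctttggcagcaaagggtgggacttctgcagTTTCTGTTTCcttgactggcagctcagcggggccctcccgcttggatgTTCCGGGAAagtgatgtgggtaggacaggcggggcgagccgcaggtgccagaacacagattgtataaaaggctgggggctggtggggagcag
CD55: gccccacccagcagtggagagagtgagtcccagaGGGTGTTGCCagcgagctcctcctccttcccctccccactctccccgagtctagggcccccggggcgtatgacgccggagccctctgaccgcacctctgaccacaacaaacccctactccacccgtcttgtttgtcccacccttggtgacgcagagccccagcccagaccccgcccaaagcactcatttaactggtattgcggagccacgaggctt
C1R, upstream start: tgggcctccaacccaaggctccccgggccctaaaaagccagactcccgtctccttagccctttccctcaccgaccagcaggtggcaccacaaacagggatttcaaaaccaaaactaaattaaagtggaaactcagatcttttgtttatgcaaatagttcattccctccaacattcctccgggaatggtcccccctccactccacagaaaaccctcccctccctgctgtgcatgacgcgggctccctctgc
C1R, downstream start: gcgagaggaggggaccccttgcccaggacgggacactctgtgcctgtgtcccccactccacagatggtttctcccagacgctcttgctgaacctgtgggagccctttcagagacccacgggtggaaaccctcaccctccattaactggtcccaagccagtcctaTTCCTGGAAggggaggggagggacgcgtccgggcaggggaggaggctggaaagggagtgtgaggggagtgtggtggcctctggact
The CFB window held an ISRE match whose first base lies 140 bases before the start and a GAS match 92 bases before it. The CD55 window held 1 match to the NF-kB letters, 216 bases before the start. Of the C1R windows, the upstream one held none of the 3 and the downstream one a GAS match 86 bases before the start. CD59 has 4 windows, of which 2 overlap and hold the same single GAS match, and the windows of CD46 and CFI held none. These are matches of letters and say nothing of whether a factor was bound.

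The question of the series was what PC9 cells express after 28 days of osimertinib, and for complement the members moved in opposite directions. C1S, CD55, CFB and C1R rose, C3 and CD59 fell, CD46 did not pass the test, and SERPING1, nearly silent at day 0, was higher in all 4 day 28 libraries. Of the 7 members tested, 4 were called higher, where 28.6% of all tested genes were, and 2 lower, where 26.6% were. Their median log2 fold change was 1.42, against 0.01 for all tested genes. With 55.1% of genes called in either direction, a call by itself does not set the members apart. The share of all tested genes whose day 28 and day 0 libraries do not overlap was not counted. A lack of overlap, given below for some members, therefore does not set them apart by itself.

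**Figure D1:**
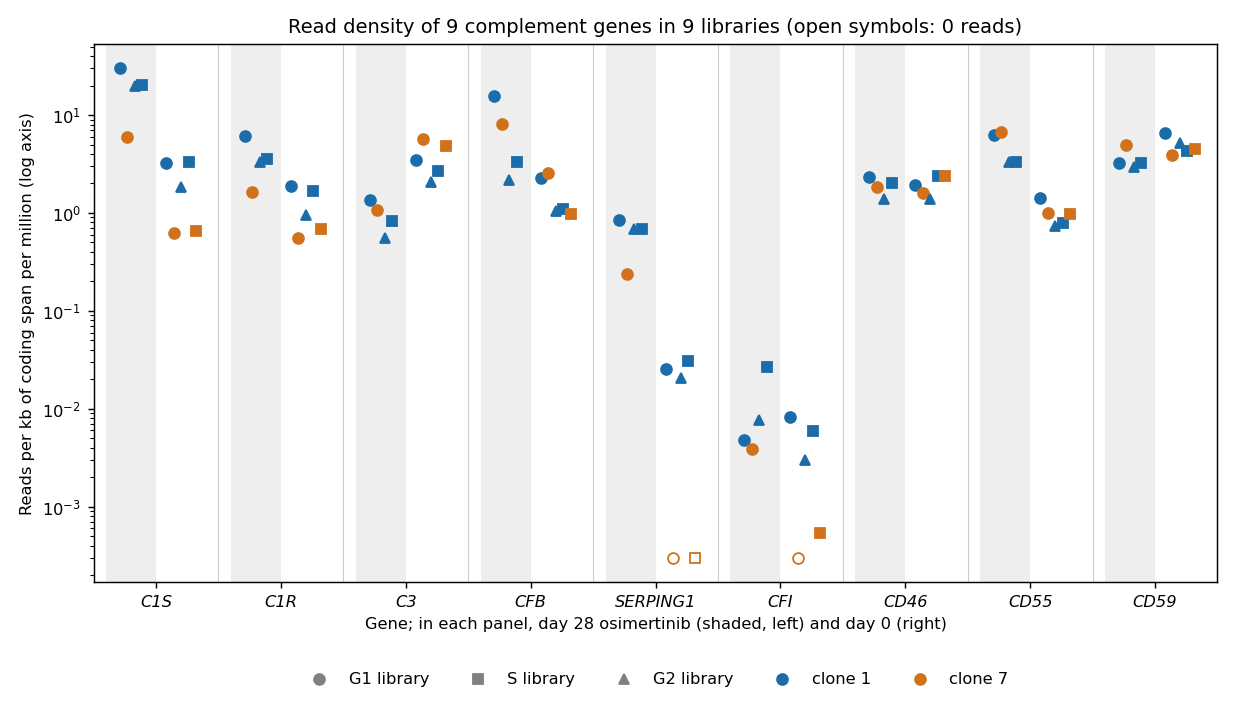
Read density of the 9 members in each library, in RPKM on a log axis, with day 28 on the shaded left of each gene and day 0 on the right. Symbols give the phase, colours the clone, and open symbols at the bottom stand for 0 reads. C1S reached 29.9 at day 28 against at most 3.33 at day 0, and C3 stayed at or below 1.37 at day 28 against at least 2.09 at day 0.

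Among the proteases of the C1 complex, C1S (ENSG00000182326, chromosome 12, 7061913 to 7070651, plus strand, GRCh38) encodes the enzyme that cuts C4 and C2. Its density at day 28 was 6.03 in G1 of clone 7, 29.9 in G1 of clone 1, 20.2 in S and 19.8 RPKM in G2. At day 0 it was 0.622 in G1 of clone 7, 3.22 in G1 of clone 1, 0.651 in S of clone 7, 3.33 in S of clone 1 and 1.85 in G2. All day 28 libraries lay above all day 0 libraries, and in either group the clone 7 libraries were the lowest. Day 28 was 8.98-fold above day 0, a log2 fold change of 3.17 ± 0.58 (SE, limma adjusted p = 0.00101, 4 against 5 libraries). In the 4 pairs of libraries matched for phase and clone the log2 difference lay between 2.52 and 3.07, below that estimate. The fit leaves the clone out, and clone 7 made up a larger share of the day 0 libraries than of those of day 28. The part of this imbalance in the estimate was not tested. Over the 20 alternatives, the clone as a replicate block among them, the estimate lay between 2.79 and 3.64.

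C1R (ENSG00000159403, chromosome 12, 7080532 to 7092388, minus strand) encodes the protease that activates C1s. Its density at day 28 was 1.62 in G1 of clone 7, 6.06 in G1 of clone 1, 3.59 in S and 3.29 in G2. In the day 0 libraries it was 0.554 in G1 of clone 7, 1.88 in G1 of clone 1, 0.680 in S of clone 7, 1.67 in S of clone 1 and 0.949 RPKM in G2. The groups overlapped, because day 28 G1 of clone 7 lay below the highest day 0 libraries of clone 1. The log2 fold change was 1.42 ± 0.43 (SE, limma adjusted p = 0.0155), and the 4 matched pairs gave 1.02 to 1.49. The call was lost without day 28 G1 clone 1 (1.10, adjusted p = 0.0618), without day 28 S (1.34, adjusted p = 0.0667) or without day 0 G2 (1.41, adjusted p = 0.0501).

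Of the C1q subunits that join these proteases in the C1 complex, C1QA and C1QB had no read in any library. C1QC had 55 reads (0.340 RPKM) in day 28 G2 and none in the other 8 libraries, on a span that shares its strand with ENSG00000289692. C1RL, which encodes a C1r-like protease and lies beside C1R on chromosome 12 (7093806 to 7109180), rose with a log2 fold change of 1.33 ± 0.23 (SE, limma adjusted p = 7.79e-04). The neighbours C1S, C1R and C1RL were thus all called higher.

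C3 (ENSG00000125730, chromosome 19, 6677882 to 6720589, minus strand) encodes the component on which all routes converge. Its density at day 28 was 1.07 in G1 of clone 7, 1.37 in G1 of clone 1, 0.829 in S and 0.552 in G2. The day 0 values were 5.70 in G1 of clone 7, 3.50 in G1 of clone 1, 4.80 in S of clone 7, 2.71 in S of clone 1 and 2.09 RPKM in G2. The groups did not overlap, and G2 was lowest on either day. C3 fell to 4.74-fold below day 0, a log2 fold change of -2.24 ± 0.25 (SE, limma adjusted p = 7.23e-05), and the 4 matched pairs gave -2.87 to -1.56.

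CFB (ENSG00000243649, chromosome 6, 31946222 to 31952030, plus strand) encodes factor B, which joins C3b to form the C3-cutting enzyme of the alternative pathway. Its density at day 28 was 8.10 in G1 of clone 7, 15.7 in G1 of clone 1, 3.30 in S and 2.15 in G2. The day 0 densities were 2.54 in G1 of clone 7, 2.27 in G1 of clone 1, 0.984 in S of clone 7, 1.09 in S of clone 1 and 1.04 RPKM in G2. The G1 libraries were the highest on either day, and the groups overlapped because day 28 G2 lay below the day 0 G1 libraries. Its log2 fold change was 1.51 ± 0.29 (SE, limma adjusted p = 0.00123), and the 4 matched pairs gave 0.70 to 2.59. The span is overlapped on the same strand by ENSG00000244255, whose reads cannot be told apart from those of CFB.

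Of the membrane regulators, CD55 (ENSG00000196352, chromosome 1, 207321766 to 207372776, plus strand) encodes decay-accelerating factor, a protein on a glycosylphosphatidylinositol (GPI) anchor that takes C3-cutting enzymes apart. Its density at day 28 was 6.66 in G1 of clone 7, 6.31 in G1 of clone 1, 3.35 in S and 3.28 in G2. At day 0 the values were 1.01 in G1 of clone 7, 1.43 in G1 of clone 1, 0.965 in S of clone 7, 0.782 in S of clone 1 and 0.728 RPKM in G2. Every day 28 library lay above every day 0 library, with the G1 libraries of day 28 at the top. This gave a log2 fold change of 1.94 ± 0.18 (SE, limma adjusted p = 2.64e-05), a 3.85-fold rise, and the 4 matched pairs lay close together at 1.83 to 2.27.

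CD59 (ENSG00000085063, chromosome 11, 33710126 to 33722445, minus strand) encodes protectin, also on a GPI anchor, which blocks the last step of pore assembly. Its density at day 28 was 4.93 in G1 of clone 7, 3.21 in G1 of clone 1, 3.25 in S and 2.96 in G2. In untreated cells it was 3.95 in G1 of clone 7, 6.50 in G1 of clone 1, 4.53 in S of clone 7, 4.32 in S of clone 1 and 5.15 RPKM in G2. In these densities the day 28 G1 library of clone 7 lay among the day 0 libraries, whereas on the scale of the deposited values, used by the test, the groups did not overlap (11.67 to 12.29 at day 28 and 12.31 to 12.91 at day 0, log2). The log2 fold change was -0.76 ± 0.21 (SE, limma adjusted p = 0.00938), and the matched pairs ranged from -1.22 to -0.14, the smallest in G1 of clone 7. With the trend of fold change with span length removed, the call was lost (-0.52, adjusted p = 0.0599). The span is overlapped on the same strand by ENSG00000284969.

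CD46 (ENSG00000117335, chromosome 1, 207752213 to 207793595, plus strand) encodes membrane cofactor protein, which helps factor I to inactivate C3b and C4b. Its density was 1.38 to 2.35 RPKM over the 4 day 28 libraries and 1.38 to 2.38 over the 5 day 0 libraries, and on the log2 scale of the test 12.32 to 12.99 at day 28 and 12.66 to 13.34 at day 0, so the groups overlapped. Its log2 fold change was -0.24 ± 0.17 (SE, limma adjusted p = 0.258), with a 95% interval of -0.62 to 0.14.

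SERPING1 (ENSG00000149131, chromosome 11, 57598169 to 57614581, plus strand) encodes C1 inhibitor, the serpin that inactivates C1r and C1s. It had 132 reads in G1 of clone 7, 427 in G1 of clone 1, 457 in S and 489 in G2 at day 28. At day 0 it had no read in G1 of clone 7 or in S of clone 7, and 45 in G1 of clone 1, 24 in S of clone 1 and 15 in G2. The lowest day 28 library thus held more reads than all day 0 libraries together (84), and pooled over libraries the rate was 28.96-fold higher at day 28, with a 95% interval of 23.2 to 36.5 that covers counting error only. Its mean log2 value was 9.63 ± 0.86 at day 28 (SD, n = 4) and 4.40 ± 1.52 at day 0 (SD, n = 5), a difference of 5.23. The exact two-sided permutation test gave p = 0.0159, the smallest that this test can give with these numbers of libraries. With no filter on low values, over 20442 genes, it rose with a log2 fold change of 5.17 ± 0.79 (SE, limma adjusted p = 8.98e-05), where 24.4% of genes were called higher.

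CFI (ENSG00000205403, chromosome 4, 109740893 to 109801971, minus strand), the gene of factor I, was at the edge of detection. It had 8 reads in G1 of clone 7, 9 in G1 of clone 1, 66 in S and 20 in G2 at day 28, against 0 in G1 of clone 7, 55 in G1 of clone 1, 1 in S of clone 7, 17 in S of clone 1 and 8 in G2 at day 0. The groups overlapped, and the mean log2 values of 5.41 ± 1.27 at day 28 (SD, n = 4) and 4.21 ± 1.36 at day 0 (SD, n = 5) did not differ beyond their spread (exact two-sided permutation p = 0.238). Read density over 413 olfactory receptor genes, which encode odour receptors, was 0.00771 to 0.0259 RPKM at day 28 and 0.00108 to 0.00454 at day 0. CFI had 0.00391 to 0.0264 at day 28, above that density in S only, and 0 to 0.00829 at day 0, above it in G1 and S of clone 1 only. SERPING1, at 0.240 to 0.853, lay above it in all 4 day 28 libraries. The same strand of the CFI span also holds ENSG00000285330.

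Per length of span, the order of the members changed between the days. At day 28 the median density fell in the order C1S (20.0), CFB (5.70), CD55 (4.83), C1R (3.44), CD59 (3.23), CD46 (1.93), C3 (0.951), SERPING1 (0.687) and CFI (0.00622 RPKM). At day 0 the order was CD59 (4.53), C3 (3.50), CD46 (1.93), C1S (1.85), CFB (1.09), CD55 (0.965), C1R (0.949), SERPING1 (0.0207) and CFI (0.00297). The ranges over libraries of neighbours in these orders overlapped, except between CD59 and CD46, CD46 and C3, and SERPING1 and CFI at day 28, and between C1R and SERPING1 at day 0. These densities count introns as well as exons, and members whose span is mostly intron are lowered by it.

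Within single phases the estimates were close to those over all phases, with fewer calls. In G1, with 2 libraries against 2, CD55 (log2 fold change 2.101, limma adjusted p = 0.00295) and CFB (1.90, adjusted p = 0.00969) rose and C3 fell (-2.22, adjusted p = 0.00788), so 3 of 7 members were called where 39% of all tested genes were. C1S at 2.91 (adjusted p = 0.0552) and C1R at 1.29 (adjusted p = 0.199) missed the threshold, and both passed it once the clone entered as a replicate block, with adjusted p of 0.00190 for C1S and 0.0116 for C1R, which brought the members called higher to 4. CD59 was at -0.68 (adjusted p = 0.116). The C3 call in G1 was lost without day 28 G1 clone 7 (-2.03, adjusted p = 0.0508) and the CFB call without day 28 G1 clone 1 (1.42, adjusted p = 0.0528).

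In S, with 1 day 28 library against 2, the lone library was assumed to vary like the other groups. CD55 rose (1.79, limma adjusted p = 0.0332) and C3 fell (-2.27, adjusted p = 0.0464), 2 of 7 members where 7.27% of all genes were called, 4.37% higher. C1S was at 3.62 (adjusted p = 0.0999) and passed with the replicate block (2.51, adjusted p = 0.0257). Both calls ended without either day 0 S library or without either day 28 G1 library, which enters the pooled spread. The adjusted p of CD55 then lay between 0.0627 and 0.102 and that of C3 between 0.0510 and 0.157. In G2, with 1 library on each day and no test, the log2 differences were 4.68 for SERPING1, 3.07 for C1S, 1.83 for CD55, 1.45 for C1R, 0.70 for CFB, -0.35 for CD46, -1.14 for CD59 and -2.26 for C3.

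**Figure D2:**
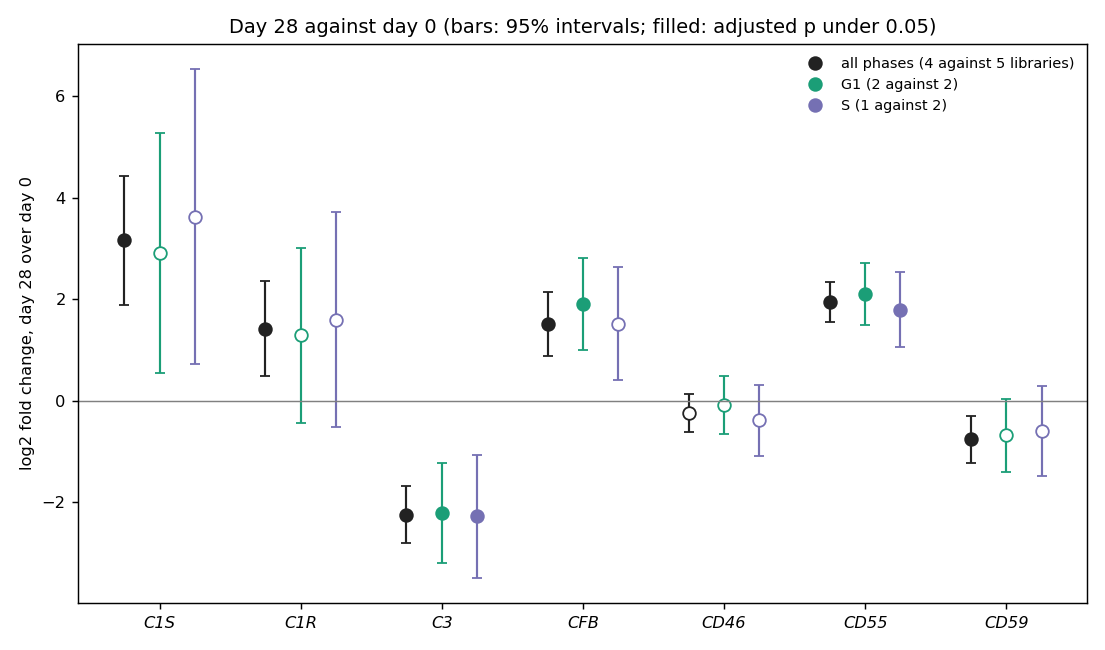
Log2 fold change of day 28 over day 0 for the 7 tested members, over all phases and within G1 and S. Points are estimates, bars 95% intervals, and filled points have an adjusted p under 0.05. CD55 and C3 were called in all 3 comparisons, at 1.79 to 2.101 and at -2.27 to -2.22.

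No member passed the test of whether its day 28 change differed between G1 and the S and G2 libraries combined. The largest day-by-phase term was that of CFB, -0.73 with a 95% interval of -1.93 to 0.47 (limma adjusted p = 0.651). No gene of 12391 was called for this term by limma, by limma-voom on the recovered reads or with no filter, while 1382 had an unadjusted p under 0.05, and the intervals for the members were wide, up to -2.28 to 3.23 for C1S.

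Between the phases of day 28, CFB was called. At day 28 its density was 3.30 in S and 2.15 in G2, against 8.10 and 15.7 RPKM in the G1 libraries. It was 3.93-fold lower in S and G2 than in G1 (log2 fold change -1.98 ± 0.39, SE, limma adjusted p = 0.0353), the only called member of 7, where 4.75% of all genes were called. Leaving out day 28 G1 of clone 1 gave -1.49 (adjusted p = 0.105) and leaving out that of clone 7 gave -2.46 (adjusted p = 0.0880), which ended the call, as did leaving out day 0 S of clone 1 (adjusted p = 0.0547) or of clone 7 (adjusted p = 0.0542). CD55 had 3.35 in S and 3.28 in G2, against 6.66 and 6.31 RPKM in the G1 libraries, which did not overlap either. Its log2 fold change of -0.86 ± 0.26 (SE) had an unadjusted p of 0.0118 in the limma fit and missed the threshold (adjusted p = 0.0993).

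At day 0, CFB had 0.984 and 1.09 in the S libraries, against 2.54 and 2.27 RPKM in the G1 libraries of the same clones. S and G1 thus did not overlap on that day either, while the day 0 G2 library (1.04 RPKM) lay between the S libraries. Its log2 fold change for S over G1 was -1.27 ± 0.39 (SE), with an unadjusted p of 0.0124 in the limma fit and an adjusted p of 0.999. No gene was called in that comparison by limma or limma-voom, 443 had an unadjusted p under 0.05, and 2 were called with no filter. For the other 6 members the log2 fold change at day 0 lay between -0.53 for CD55 and 0.37 for CD46.

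The clones differed in C1S and C1R on either day. C1S was 5.01-fold lower in clone 7 than in clone 1 in day 28 G1, 4.38-fold lower in day 0 G1 and 4.60-fold lower in day 0 S. Over all 9 libraries the log2 fold change of clone 7 over clone 1 was -2.16 ± 0.20 for C1S (SE, limma adjusted p = 8.17e-04) and -1.46 ± 0.24 for C1R (SE, adjusted p = 0.0331), so 2 of 7 members were called lower where 0.226% of all genes were, and 0.613% in either direction. The C1S call held in all 18 alternatives run (adjusted p up to 0.0169). The C1R call was lost in 9 of the 18, with adjusted p up to 0.223, and its difference stayed between -1.72 and -1.32 in those 9.

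SERPING1 ran the same way as the proteases it inhibits, with 132 reads in clone 7 and 427 in clone 1 in day 28 G1, and none in clone 7 against 45 and 24 in clone 1 in the day 0 G1 and S pairs. With no filter its log2 fold change for clone 7 over clone 1 was -2.40, which missed the threshold (limma adjusted p = 0.141). The depth of day 0 G1 clone 7, the shallowest library, allows up to 3 reads behind its 0. C3 ran the other way at day 0, with log2 differences of 0.94 in G1 and 0.98 in S for clone 7 over clone 1, and -0.36 in day 28 G1. Its clone term was not called (0.49 ± 0.25, SE, adjusted p = 0.391), and CD46, CD55, CD59 and CFB were not called either, with terms of -0.18 to 0.11.

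**Figure D3:**
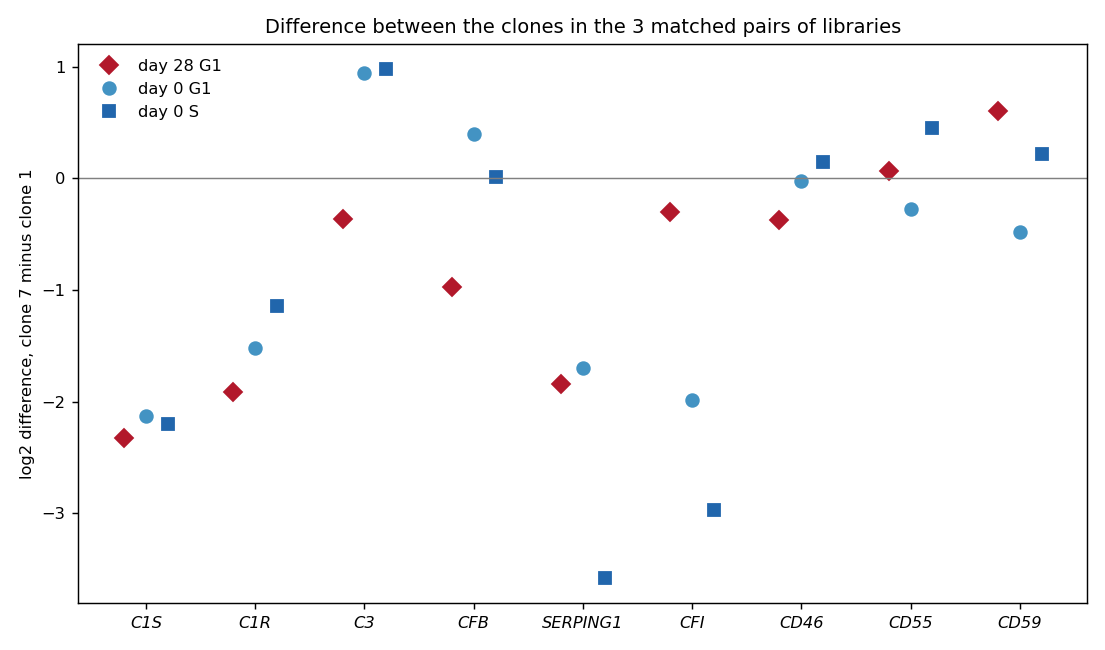
Log2 difference of clone 7 minus clone 1 for the 9 members in the 3 pairs of libraries matched for day and phase. C1S lay between -2.32 and -2.13 and C1R between -1.92 and -1.15, whereas CD55 lay between -0.27 and 0.45. SERPING1 at day 0 and CFI rest on few or no reads.

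Because the deposited spans of a gene are nested, the reads of a member could be split into those on the side of the start codon and those on the side of the stop codon. This comparison was added after the data were seen and covers 5900 genes, of which 55.3% were called on the start-codon side and 52.1% on the stop-codon side (25.7% higher, 26.4% lower). C1R had 0.0787 to 1.89 RPKM on the start-codon side (chromosome 12, 7088849 to 7092388) at day 28 and 0.288 to 1.73 at day 0, so this side overlapped. On the stop-codon side (7080532 to 7088848) it had 1.97 to 7.83 at day 28 and 0.668 to 1.94 at day 0, which did not overlap. This gave a log2 fold change of -0.54 ± 0.70 on the start-codon side (SE, limma adjusted p = 0.528) and 1.67 ± 0.42 on the stop-codon side (SE, adjusted p = 0.00640). Without the G2 library of either day the start-codon side was at 0.36 (adjusted p = 0.637 without day 28 G2 and 0.648 without day 0 G2).

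The log2 ratio of the start-codon side to the stop-codon side fell at day 28 for C1R (-2.21 ± 0.63, SE, limma adjusted p = 0.0252), C1S (-1.48 ± 0.32, adjusted p = 0.00831), CD46 (-1.16 ± 0.38, adjusted p = 0.0412) and CD55 (-1.06 ± 0.25, adjusted p = 0.0105). That is 4 of 7 members, where 14.6% of genes were called lower, 16.2% higher and 30.8% in all, and the median ratio of all genes was -0.15. C3 was at -1.12 (adjusted p = 0.112), CFB at -0.17 and CD59 at 0.29. All 4 calls were lost without day 28 S, with adjusted p of 0.0504 to 0.0599. That of C1R ended too when the G1 library of clone 1 was left out, with adjusted p of 0.0555 for the one at day 28 and 0.0518 for the one at day 0, and without the G2 library of either day its ratio was -1.26 (adjusted p = 0.0337 without day 28 G2 and 0.0361 without day 0 G2). When each of the 9 libraries was left out in turn, the CD46 call held without the G1 or the S library of clone 7 at day 0 and was lost in the other 7 fits, with adjusted p up to 0.131. With the clone as a block it held (-1.33, adjusted p = 0.00498).

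CD46, with no call over its whole span, was called lower on its start-codon side. The density there (chromosome 1, 207752213 to 207770096) was 1.04 in G1 of clone 7, 1.92 in G1 of clone 1, 2.07 in S and 0.765 in G2 at day 28. The untreated libraries had 1.42 in G1 of clone 7, 2.68 in G1 of clone 1, 2.42 in S of clone 7, 3.35 in S of clone 1 and 1.78 RPKM in G2. The groups overlapped, and each day 28 library lay below its match at day 0. The log2 fold change was -0.92 ± 0.27 on this side (SE, limma adjusted p = 0.0140), where 28.3% of genes were called lower, and 0.25 ± 0.23 on the stop-codon side (adjusted p = 0.373). Without the G2 library of either day the call was lost (-0.72, adjusted p = 0.0712 without day 0 G2 and 0.0688 without day 28 G2). Exons made up 5.29% of the bases on the start-codon side of CD46 and 1.49% on its stop-codon side. The sides may thus differ in their mix of exonic and intronic reads, and the part of this was not tested.

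CD55 and C1S rose on both sides, by 1.47 and 1.80 on the start-codon side and by 2.53 and 3.28 on the stop-codon side, and the C1S call on the start-codon side (adjusted p = 0.0318) was lost without any of 6 libraries (adjusted p up to 0.115). C3 fell on both, to a log2 fold change of -3.33 on the start-codon side and -2.21 on the stop-codon side, and CFB rose on both, by 1.40 and 1.56. CD59 fell on the stop-codon side (-0.86, adjusted p = 0.00670) and was at -0.57 on the other (adjusted p = 0.0960). Day 28 G2 stood apart in this split for C1R, C3 and CD59, though not in a single direction. Its start-codon side held 12 of 1683 C1R reads (0.713%), 0.492% of C3 reads and 23.9% of CD46 reads, the lowest shares of any library. The CD46 share was close to that of day 28 G1 of clone 7 (24.6%). For CD59 (45.7%) and CFB (39.6%) the share was the highest of any library, that of CFB close to day 0 S of clone 1 (39.3%). For C1S and CD55 it was neither the highest nor the lowest. In day 28 G2, 105 of 5142 genes had no read on the start-codon side, against 5 to 54 in the other libraries. The median share over those genes was 20.9% in that library and 19.0% to 22.7% elsewhere. The part of RNA quality in these ratios was not tested.

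**Figure D4:**
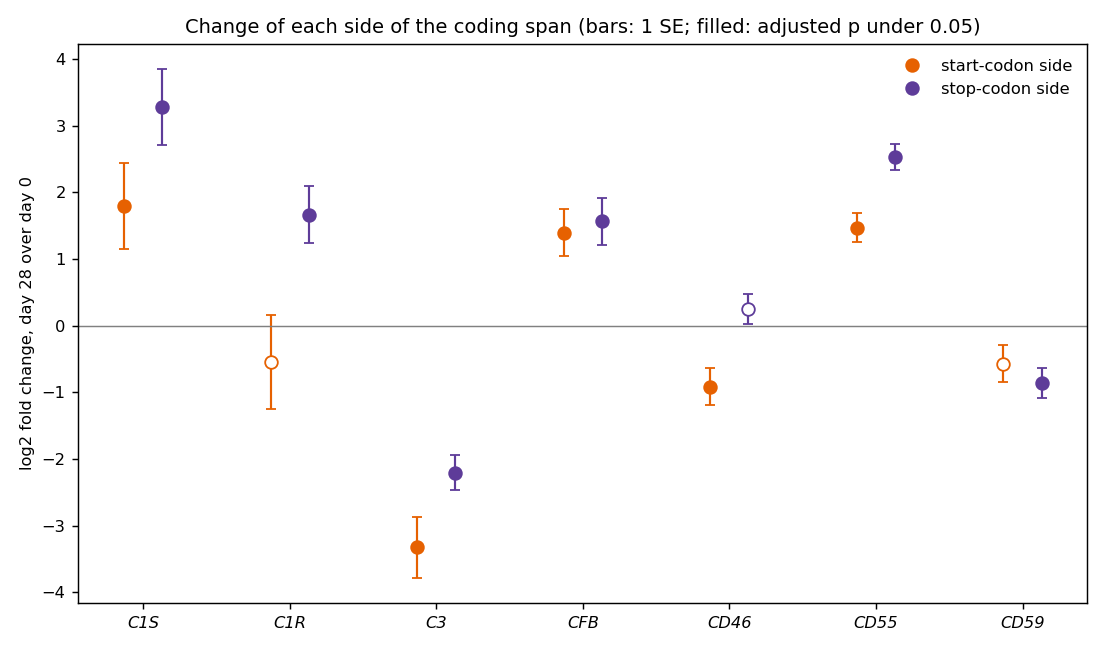
Log2 fold change of day 28 over day 0 for the start-codon side and the stop-codon side of the coding span of the 7 tested members. Points are limma estimates, bars 1 SE, and filled points have an adjusted p under 0.05. C1R was at -0.54 and 1.67 and CD46 at -0.92 and 0.25 on the start-codon and stop-codon sides.

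The rest of the complement system was read from lists drawn up by role. Of 53 further genes, 15 were abundant enough to test, and 9 were called higher and 3 lower, where 28.6% of all tested genes were called higher and 26.6% lower. The median log2 fold change of the 15 was 1.12 beside 0.01 for all tested genes. C8G and CSMD3 passed the filter only through day 28, so that they had to differ, and of the other 13 genes 7 were called higher and 3 lower, with a median of 0.86. In the terminal pathway C5, whose cutting starts pore assembly, rose (1.27 ± 0.33, SE, limma adjusted p = 0.00691). C8G, which encodes a subunit of the pore complex, had 621 reads in G1 of clone 7, 420 in G1 of clone 1, 335 in S and 292 in G2 at day 28, against 4 in G1 of clone 7, 125 in G1 of clone 1, 21 in S of clone 7, 41 in S of clone 1 and 21 in G2 at day 0. In the fit with no filter, over 20442 genes, it rose with a log2 fold change of 3.69 ± 0.48 (SE, limma adjusted p = 2.34e-05). In the lectin pathway the single tested gene COLEC11, which encodes a sugar-binding collectin, rose (1.12 ± 0.27, adjusted p = 0.00451). CFD, the protease that cuts factor B, was at 0.79 (adjusted p = 0.185). The C5 call was lost with the trend of fold change with span removed (0.57, adjusted p = 0.171).

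Among the other soluble regulators, C4BPB, the beta chain of C4b-binding protein, rose (3.53 ± 0.52, SE, limma adjusted p = 2.84e-04), as did CLU, which encodes clusterin (0.86 ± 0.25, adjusted p = 0.0116). C4BPB lies on chromosome 1 (207089532 to 207099929) in the run of regulator genes that continues with CD55, CR2 and CD46. Along that run the log2 fold change was 3.53 for C4BPB, 1.94 for CD55, -1.30 for CR2, the receptor of C3d (adjusted p = 0.00284), and -0.24 for CD46. The membrane regulators CSMD3 (3.00) and CSMD1 (1.40) were called higher, and both turned to negative, uncalled values once a background at the read density of the olfactory receptor genes was subtracted (-0.34 and -0.81). With the trend with span removed, CSMD1 was called lower (-1.73, adjusted p = 9.97e-04) and CSMD3 was at 0.34 (adjusted p = 0.718). Of 5 tested receptors, ITGAM, a chain of complement receptor 3, rose (1.22), C1QBP and CALR, which bind C1q (-2.16 and -0.81), and CR2 fell, and ITGB2 was at -0.06. Under quantile scaling the CALR value turned to 0.16, while the median of all genes shifted the other way, by -0.12. The ITGAM call ended under the same scaling (0.75, adjusted p = 0.120). Both calls also ended with the trend with span removed (-0.47 for CALR and 0.86 for ITGAM).

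**Figure D5:**
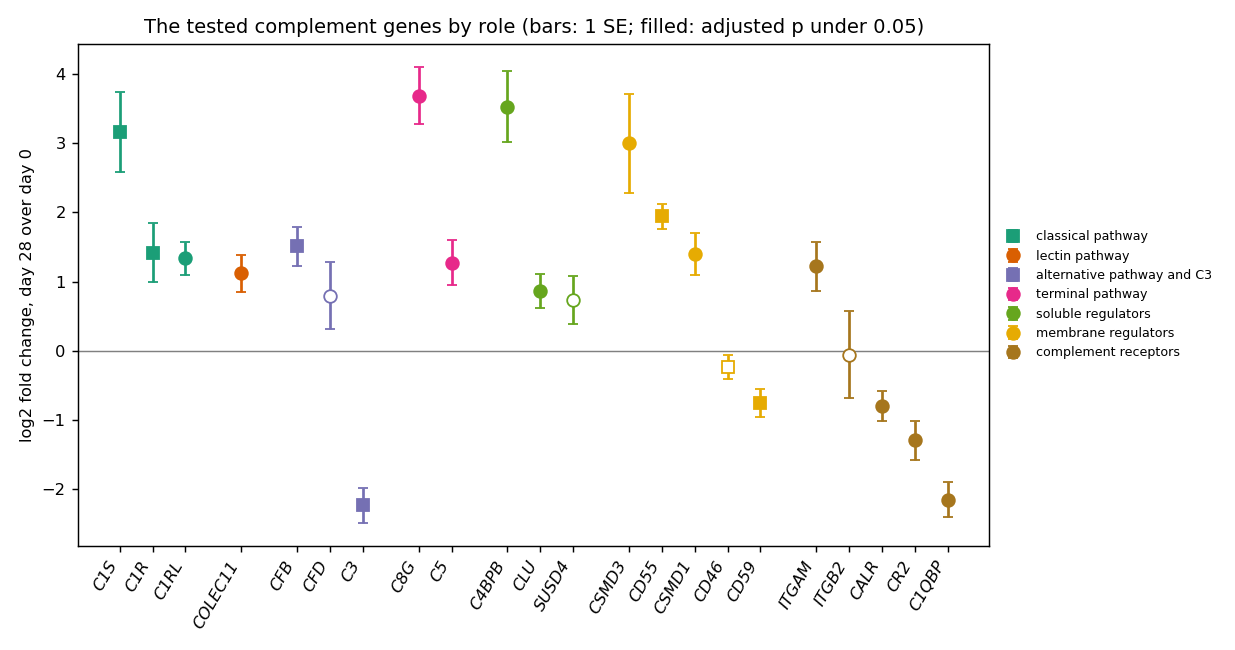
Log2 fold change of day 28 over day 0 for the 22 tested complement genes, grouped by role. Squares are the members of the set and circles the other listed genes, bars are 1 SE, and filled symbols have an adjusted p under 0.05. C8G at 3.69 and CSMD3 at 3.00 passed the filter on low values only through day 28, and C3 at -2.24 was the lowest.

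Of 18 tested factors of interferon, IL6 and NF-kB signalling that act on complement genes, 3 were called higher and 3 lower, where 28.6% and 26.6% of all tested genes were, with a median of -0.01. Among the 18 factors, IL1R1 passed the filter on low values only through day 0 (mean log2 7.80, against 6.88 at day 28), so that it had to differ. With no filter it was at -0.90 (limma adjusted p = 0.202). With the clone as a block the counts were 5 higher and 4 lower, with NFKB2 (0.68, adjusted p = 0.00852), RELB (0.77, adjusted p = 0.0441) and IL1R1 (-1.04, adjusted p = 0.0488) added. Without day 28 G1 of clone 1 they were 5 and 2, and without day 28 S 3 and 1. STAT2 (2.18 ± 0.28, SE, limma adjusted p = 1.60e-04) and IRF9 (1.77 ± 0.37, adjusted p = 0.00205), which bind the ISRE in one complex, rose, and so did CEBPD (2.19 ± 0.35), a factor induced by IL6. CEBPB (-0.74), NFKB1 (-0.71) and TNFRSF1A (-0.87) fell. The CEBPB call ended under quantile scaling (-0.52), with the trend with span removed (-0.25) or without day 28 G1 of clone 1 or day 28 S, and the NFKB1 call without day 28 S (-0.57, adjusted p = 0.0699). IRF1 was at 0.00. Of the 27 genes that make, attach or remodel the GPI anchor of CD55 and CD59, 8 were called higher and 9 lower. These shares were near those of all tested genes (28.6% and 26.6%), and the median was -0.12. PGAP1 (2.90) and PIGZ (2.30) were the highest and PIGY (-1.46) and PIGM (-1.27) the lowest. With the trend with span removed 8 were called higher and 6 lower, and the PIGM call ended (-0.80, adjusted p = 0.0615). Without the G2 library of either day 5 were called higher and 8 lower.

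By Pearson correlation of log2 values over the 9 libraries, the genes whose pattern was most like that of C1S were FN1 (0.981), STS (0.971) and OBSL1 (0.970). Most like C3 were RAB27A (0.989), TRIM8 (0.979) and MOCS2 (0.978). The libraries share days and clones, so these values describe likeness in this set of libraries and carry no test.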

How the data were processed

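RNA was measured in 9 libraries sorted from 2 clones of PC9. The authors deposited log2 values for 80037 transcripts. Per the submitters' processing notes, HISAT2 2.1.0 aligned the reads to GRCh38; those notes also list DESeq2, without a version. The read counter and the scaling are not given in the sources used here. A library's values step in whole multiples of a single amount, with 0.9 reads entered for none (100% of values up to 1000 reads lay within 0.05 of a whole number), so the reads over each coding span, introns included, were recovered. The analysis used log2 of the linear value plus 1. Because the deposited unit is log2, limma 3.58.1 in R 4.3.3 was used (lmFit, eBayes with trend, Benjamini-Hochberg over 12391 genes, adjusted p under 0.05), checked on simulated data. Day 28 was fitted with day and phase as terms, the clones with clone, day and phase, and single phases with 6 group means and 1 pooled spread. SERPING1 and CFI were tested by exact permutation of libraries. RPKM divides recovered reads by span and library total.

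Library totals ran from 8.83 to 108.7 M reads (M for mega), and intervals from reads cover counting error only. Libraries of a clone share its number, which pairs them: the difference of clone 7 from clone 1 in day 28 G1 correlated over genes at 0.115 with that in day 0 G1 and 0.296 with that in day 0 S, and the 2 day 0 pairs correlated at 0.653. The fits reported leave the clone out, and the replicate block stands beside a member's result, or a list's count, where it changes the call or moves the count by over 1.5 times. The members, gene lists and tests were chosen with earlier results of these data known. Named beyond the members were the genes with the largest change each way in each list and the 3 genes most like C1S and C3, the tested members with the highest and lowest change. Alternatives were other scalings, filters and pseudocounts, the replicate block, clone 1 alone, limma-voom on recovered reads, background subtraction, removal of the trend with span, and leaving out each library. Tables were read in R with data.table, version 1.17.8, and summarised with pandas 2.3.3 and numpy 2.4.6 under Python 3.11.15; scipy 1.17.1 gave the exact tests and matplotlib 3.10.9 the figures.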

Additional observations from a re-analysis of the deposited data

Results flagged for a closer look

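In each day's libraries, every member was checked for a highest or lowest library far from the others, which made 18 groups, and chance alone is taken to mark about 1 in 20 of them. SERPING1 at day 28 was marked: its log2 value was 8.35 in G1 of clone 7, apart from the other 3 day 28 libraries at 9.98 to 10.19. The 132 reads behind it were the fewest of the day 28 libraries and more than any day 0 library held.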

How the results depend on the processing

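For day 28 against day 0 over all phases, C1S, C3, CD55 and CFB kept their call and direction and CD46 stayed uncalled in all 20 alternatives. C1R kept its call in 17 (1.10 to 1.79 over all 20) and CD59 in 19, and without the trend with span 1 member was called lower in place of 2. Counts in single comparisons moved more. In G1 the replicate block called 4 members higher, and leaving out 1 library gave 2512 to 4836 genes called, 1 to 3 members higher and 0 to 1 lower. In S, 2573 genes were called with no filter, 1935 with the replicate block, 1737 with limma-voom, 546 with background subtracted and 477 with the trend with span removed, against 901. Members called higher in S were 2 with no filter or the replicate block, members called lower were 0 with background subtracted or the trend removed, and leaving out 1 library gave 0 to 1672 genes and 0 to 1 members each way. In S and G2 against G1 at day 28, 1219 genes were called under quantile scaling, 1156 with no filter and 1165 with limma-voom, against 588, and leaving out 1 library gave 46 to 752 genes and 0 to 1 members lower. For clone 7 against clone 1, 32 genes were called under quantile scaling or background subtraction, 163 with no filter and 159 with limma-voom, against 76; members called lower were 1 under quantile scaling or background subtraction, and leaving out 1 library gave 9 to 337 genes and 1 to 2 members. S against G1 at day 0 called 2 genes with no filter, and the day-by-phase term 0 to 56 when 1 library was left out. The replicate block changed no call of a member beyond those given for G1 and S. No called value of a member changed sign; among the other listed genes, CALR did under quantile scaling CSMD1 and CSMD3 with background subtracted, and CSMD1 with the trend with span removed. The causes of these moves were not tested. Depth limits CFI and day 0 SERPING1 most, and intronic reads, 1 library in several groups and shared clones limit the rest.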

Other observations

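Among the components that fell below the filter, VTN and C2 had a higher density at day 28. The density of olfactory receptor genes was higher at day 28 too (0.00771 to 0.0259, against 0.00108 to 0.00454 RPKM at day 0). VTN, which encodes vitronectin, a soluble inhibitor of the pore, had a density of 2.35 in G1 of clone 7, 2.98 in G1 of clone 1, 1.95 in S and 0.475 RPKM in G2 at day 28, against 0 to 0.105 at day 0. These groups did not overlap, and the span shares its strand with ENSG00000273171. C2, which encodes the component cut by C1s, had 0.317 in G1 of clone 7, 0.220 in G1 of clone 1, 0.0564 in S and 0.0136 in G2 at day 28, against 0.00224 to 0.0106 at day 0, and its G2 value lay below the density of olfactory receptor genes in that library (0.0259). The C2 span shares its strand with ENSG00000244255. Both genes were picked after their values were seen, and no test is given.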
